A study of Mus musculus with 4 samples.

Results

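Rab, Arf and Arl proteins are small GTPases that mark membranes: bound to GTP they sit on a vesicle or organelle and recruit coats, motors and tethers, and bound to GDP they are released. Rab proteins give each compartment of the secretory and endocytic routes its identity, Arf proteins recruit coat proteins, and the Arf-like (Arl) proteins serve the Golgi, the lysosome and the cilium. In the absorptive cells of the gut these routes carry apical membrane proteins, chylomicrons and lysosomal cargo. The genes were taken by symbol, as RefSeq protein-coding genes of the mouse build mm10 whose names start with Rab, Arf or Arl and go on with a digit. This gave 102 of the 21887 protein-coding genes that RefSeq places on a numbered or sex chromosome. Of these, 59 encode Rab GTPases, 6 Arf GTPases and 20 Arl GTPases. The other 17 encode proteins named for binding a GTPase, among them effectors, exchange factors and subunits of a GTPase-activating complex, so the symbol rule is wider than the GTPases themselves.

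The data were peak lists from chromatin immunoprecipitation and sequencing (ChIP-seq) with an antibody against SHP, the product of Nr0b2, a nuclear receptor that reaches DNA through other factors. The groups were an SHP pulldown from SHP-KO mice and an SHP pulldown from wild-type mice, all on the C57BL/6 background and 8 to 12 weeks old, each with input DNA that was not analysed here. All mice had gone without food for 12 h and then had chow for 4 h, and jejunum and ileum were taken, so every value describes the fed state. Per the labels' protocols there were 3 sets, each of material from 3 mice, but 1 peak list stands for each genotype, so no value below has a replicate error. The SHP-KO list held 7 peaks and the wild-type list 5775. The lists were filtered differently, as described with the processing, and no test between genotypes was made. The knockout allele and the cell types in which SHP is absent are not described in the labels. Whole tissue was used, so more cells with SHP at a gene and more SHP per cell cannot be told apart, and a peak list holds no marker levels against which the tissue label could be checked. The enrichment value given for each peak is the authors' deposited signal, whose scale is not stated. Read depth was unknown.

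SHP peaks were present at 42 of the 102 genes (41.2%, 95% exact interval 31.5 to 51.4), where a gene counts as occupied when a wild-type summit, the highest point of a peak, lies within 5 kb of either gene end. Over all protein-coding genes the share was 26.4%. That background includes olfactory and vomeronasal receptors and genes with placeholder symbols, of which 5.37% were occupied, and without them it was 30.0%. Among the GTPase genes alone 36 of 85 (42.4%) were occupied, and among the binding proteins 6 of 17 (35.3%, interval 14.2 to 61.7). By family, 5 of 6 Arf genes (83.3%, 35.9 to 99.6), 8 of 20 Arl GTPase genes (40.0%, 19.1 to 63.9) and 23 of 59 Rab genes (39.0%, 26.5 to 52.6) had a peak. The intervals cover counting error only, and those of the families overlap one another. With 1 list and related genes as members, these shares are descriptions of the list.

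**Figure D1:**
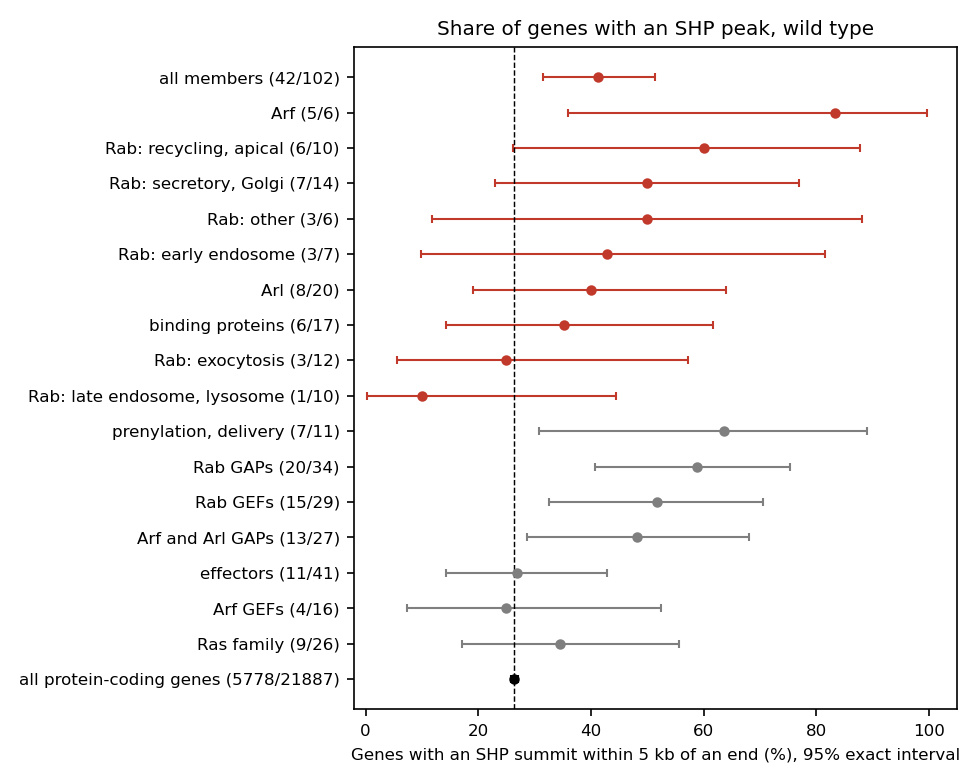
Share of genes with a wild-type SHP summit within 5 kb of an end (x axis, %), with 95% exact intervals, for the 102 members and their classes (red), for lists of regulators and of the Ras family (grey) and for all protein-coding genes (black point and dashed line, 26.4%). The Arf genes are highest at 83.3% and the Rab genes of the late endosome and lysosome lowest at 10% among the red classes, with wide intervals for these small classes. The Rab classes were assigned by hand.

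The peaks were common at these genes but moderate in height. The 42 genes carried 46 distinct peaks, with a median enrichment value of 5.47 (quartiles 4.97 and 5.81), against 5.64 (4.92 and 6.43) for the other 4823 peaks within 5 kb of a protein-coding gene. By −log10 p, the caller's measure of confidence, the medians were 15.9 and 15 in the same order, and by width 1138 and 1004 bp. Of the 42 genes, 16 had their highest peak above the median of the whole list and only 4 reached its 75th percentile, 6.46. As a share of the members these 4 made 3.92% (interval 1.08 to 9.74), which includes the 6.89% of all protein-coding genes that had a peak that high. When only the upper part of the list by −log10 p was counted, from its median of 14.8, 27 of the 102 genes (26.5%) were occupied, where the share over all protein-coding genes was 14.8%.

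**Figure D2:**
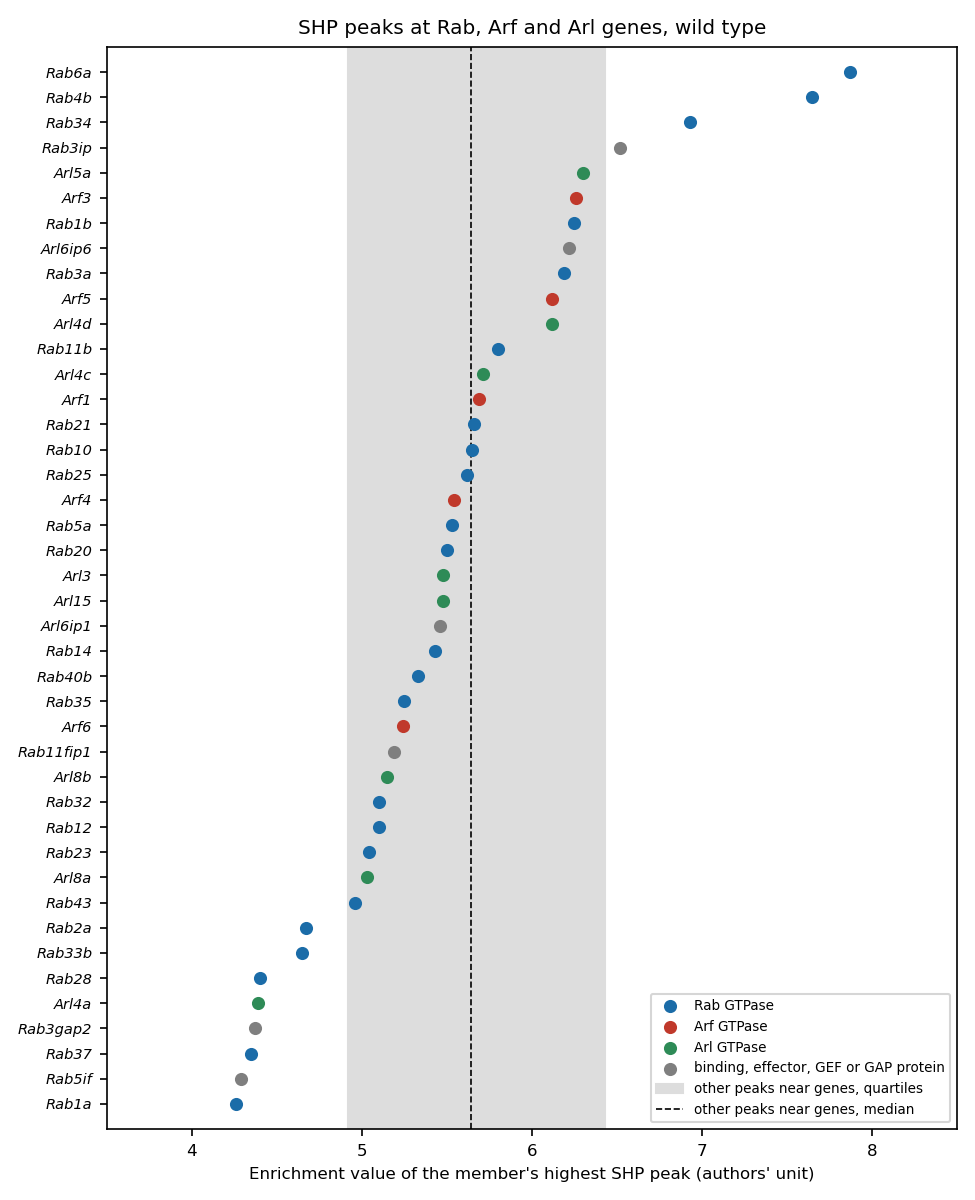
Enrichment value (x axis, authors' unit) of the highest wild-type SHP peak within 5 kb of each of the 42 occupied genes, ordered from high to low and coloured by family, with the quartiles (grey band) and median (dashed line, 5.64) of the other peaks near genes. Rab6a (7.87), Rab4b (7.65), Rab34 (6.93) and Rab3ip (6.52) lie to the right of the band, and 8 genes from Rab2a (4.67) down to Rab1a (4.26) lie to its left.

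Among Rab genes of the secretory pathway and the Golgi, 7 of 14 were occupied, and they spanned the whole range of values seen among the members. Rab6a, which directs traffic at the Golgi in both directions, had the highest value of all members, 7.87, with −log10 p of 22.1 and rank 230 of 5775 in the list. Its peak covered chr7:100607239-100608781, and the summit lay at -117 bp from the start of the gene, before it, and 153 bp from the start of Mrpl48, a mitochondrial ribosomal protein gene whose span overlaps that of Rab6a. Rab34, which acts at the Golgi and in the making of cilia, had a peak at chr11:78188433-78189961 with a value of 6.93 (−log10 p 20) and its summit 518 bp downstream of its nearest start. Rab1b and Rab1a both serve transport from the endoplasmic reticulum to the Golgi, and both were occupied at different heights. Rab1b had a value of 6.25 (−log10 p 20) at chr19:5106025-5107152, with the summit 25 bp inside the gene, and Rab1a had 4.26, the lowest of the 42. Rab43 (4.96), Rab2a (4.67), which also takes part in the fusion of autophagosomes with lysosomes, and Rab33b (4.65), a Golgi Rab that binds the autophagy protein ATG16L1, were the others. Rab2b, Rab6b, Rab18, Rab19, Rab30, Rab33a and Rab36 had no summit within 5 kb. Rab18, which sits on lipid droplets and the endoplasmic reticulum, had its nearest summit 248867 bp away.

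Of the Rab genes of recycling and apical endosomes, 6 of 10 were occupied. Rab4b, a Rab of rapid return from early endosomes to the surface, had the second highest value of the members, 7.65, and the highest −log10 p, 25.6. That peak covered chr7:27178300-27179223 with the summit 72 bp inside the start, and a further peak with a value of 5.81 lay 1814 bp beyond the other end of the gene, 183 bp from the start of Egln2. Rab11b, of the recycling endosome, had 5.80 (−log10 p 16.8) at chr17:33759757-33760568, with the summit 490 bp downstream of the start. Rab14 (5.43), Rab35 (5.25) and Rab12 (5.10) each had a summit within 250 bp of the start. The exception in position was Rab25, the epithelial relative of Rab11, whose peak (5.62) lay 4546 bp before its start and 126 bp from the start of Lamtor2, a subunit of the lysosomal scaffold for mTORC1. Rab11a, the other main Rab of apical recycling, had no summit nearer than 294736 bp, and Rab4a, Rab15 and Rab17 also had none within 5 kb.

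Early endosome Rab genes were occupied at 3 of 7 members. Rab21, which carries integrins through early endosomes, had a value of 5.66 (−log10 p 15.2) at chr10:115314891-115316038. That summit lay 1915 bp from the RefSeq gene end but 87 bp downstream of the tabulated start. Rab5a, the GTPase that drives fusion of early endosomes, had 5.53, and Rab20 had 5.50. These values are close together and all near the median of the list, 5.65. Rab5b, Rab5c, Rab22a and Rab31 had no summit within 5 kb.

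Late endosome, lysosome and autophagy Rab genes had the lowest share, 1 of 10 (10%, interval 0.253 to 44.5). The occupied gene was Rab32, of lysosome-related organelles, with a value of 5.10 and a summit 14 bp before the start. Rab7, the main Rab of the late endosome and lysosome, had its nearest summit at 18205 bp, and Rab9, which returns receptors to the Golgi, at 16580 bp. Rab24, which takes part in autophagy, had its nearest at 7986 bp, and Rab7b, Rab29, Rab38, Rab39, Rab39b and Rab9b lay between 16995 and 3169236 bp from one. The interval of this class includes the background of 26.4%, so its low share was not distinguishable from the background by counting error alone. The share also depends on the assignment by hand of each Rab to a single class. The occupied Rab2a and Rab33b, whose parts in autophagy are given above, were counted with the secretory pathway and the Golgi.

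Rab genes of exocytosis had 3 of 12 occupied, close to the background share. Rab3a, best known for regulated release of synaptic vesicles and secretory granules, had 6.19 (−log10 p 18.2) at chr8:70754360-70755460, with the summit 26 bp inside the start. Rab10, which carries membrane to the basolateral surface of epithelia, had 5.65 with the summit 3 bp before the start, the closest of all members. Rab37, of secretory granules, had 4.35, but its summit lay 599 bp from an end of Rab37 and 31 bp from the start of Slc9a3r1, a brush border scaffold gene. Rab8a and Rab8b, which act in apical transport, had their nearest summits 25925 and 26508 bp away. Rab3b, Rab3c, Rab3d, Rab13, Rab26, Rab27a and Rab27b also had none within 5 kb. Of the remaining Rab genes, Rab40b (5.33), part of a ubiquitin ligase, Rab23 (5.04), an inhibitor of Hedgehog signalling, and Rab28 (4.4), of photoreceptor cilia, were occupied, and Rab40c, Rab42 and Rab44 were not.

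Arf genes were occupied at all but Arf2, and each had a summit within 113 bp of a gene end. Arf1 and Arf3 recruit the COPI coat and clathrin adaptors to the Golgi. Arf3 was highest of the family, with a value of 6.26 (−log10 p 23.9) at chr15:98762220-98763476. Arf1 had 5.69 (−log10 p 18.8) at chr11:59227349-59229282, and a further peak with a value of 4.17 lay 2931 bp beyond its other end. Arf5 had 6.12 (−log10 p 19.7) at chr6:28423371-28424214, and a small second peak of 161 bp with a value of 3.62 followed 825 bp into the gene. Arf4, which with Arf5 forms class II of the family, had 5.54 (−log10 p 18) at chr14:26637816-26639019. Arf6, the Arf of the plasma membrane and its endosomes, had 5.24 (−log10 p 17.5) at chr12:69371458-69373388, with the summit 8 bp outside the gene. The 5 genes all stayed occupied when only the upper part of the list by −log10 p was counted, and none reached the 75th percentile of enrichment values. Arf2, a class I gene beside Arf1 and Arf3, had its nearest summit at 156542 bp.

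Arl GTPase genes had 8 of 20 occupied. Arl5a, which recruits a tethering complex to the Golgi, was highest at 6.30 (−log10 p 15), with a peak at chr2:52424313-52425129 and the summit 144 bp before the start. The members of the Arl4 group, which bring cytohesins to the plasma membrane, were all occupied. Arl4d had 6.12 (−log10 p 19.7) in a narrow peak at chr11:101665458-101665824, Arl4c had 5.71 (−log10 p 14.5) at chr1:88701385-88702690, and Arl4a had 4.39. Arl3, which releases lipid-modified cargo in cilia, and Arl15 each had 5.48. Arl8a and Arl8b, which couple lysosomes to motors that carry them outward, were both occupied, Arl8a with 5.03 and Arl8b with 5.15. The Arl8a summit lay 410 bp inside its start, while the Arl8b summit lay 4710 bp outside the gene and 208 bp from a start of Edem1, a gene of endoplasmic reticulum degradation. Arl1, Arl2, Arl5b, Arl5c, Arl6, Arl9, Arl10, Arl11, Arl13a, Arl13b, Arl14 and Arl16 had no summit within 5 kb.

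Genes of binding proteins had 6 of 17 occupied. Rab3ip, an exchange factor that activates Rab8, had 6.52 (−log10 p 18.1) at chr10:116949665-116950747, with the summit 497 bp downstream of the start, while Rab8a and Rab8b themselves had no peak. Arl6ip6 had 6.22 (−log10 p 20.4) at chr2:53190714-53192676, with the summit 526 bp before its start. Arl6ip1, which shapes tubules of the endoplasmic reticulum, had 5.46 at its start. Rab11fip1, an effector of Rab11, had 5.19, Rab3gap2, of the complex that inactivates Rab3, had 4.37, and Rab5if had 4.29. Not occupied were Rab3gap1, the partner of Rab3gap2, as well as Rab3il1, Rab11fip2, Rab11fip3, Rab11fip4, Rab11fip5, Arl2bp, Arl6ip4, Arl6ip5, Arl14ep and Arl14epl.

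None of the 5 X-linked members, Rab9, Rab9b, Rab33a, Rab39b and Arl13a, was occupied. Over the X chromosome 19 of 966 genes that code for protein (1.97%) were occupied, so peaks were sparse there in general. The late endosome and lysosome class holds 3 of these genes, and on the autosomes 1 of its 7 genes was occupied (14.3%). On the autosomes 42 of 97 members (43.3%) were occupied, where the share of all autosomal protein-coding genes was 27.9%.

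Most summits stood at transcription starts. A start was tabulated by RefSeq for 83 of the 102 members, among them 37 of the 42 occupied genes. In these 37 the summit of the highest peak lay within 1 kb of a start in 35 (94.6%), with 17 before and 18 after it, at a median of 25 bp downstream (quartiles -123 and 124 bp). Among the other 4626 occupied genes with a tabulated start the highest peak was within 1 kb of a start in 74.4%, at a median of 86 bp downstream. The exceptions among the 37 were Rab25 and Rab40b, whose peak lay 1723 bp beyond the far end of the gene and 49 bp from an end of Wdr45b. Occupied genes without a tabulated start are left out of these shares. Of them, Arf6, Rab11fip1 and Rab2a had the summit 8, 42 and 277 bp from a gene end. Rab37 and Arl8b had it 599 and 4710 bp outside the gene, near starts of Slc9a3r1 and Edem1. No member without a summit near its ends had one inside the gene. Counted at the start alone, 35 of 83 members (42.2%) had a summit within 1 kb, where the share of all protein-coding genes was 22.1%.

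**Figure D3:**
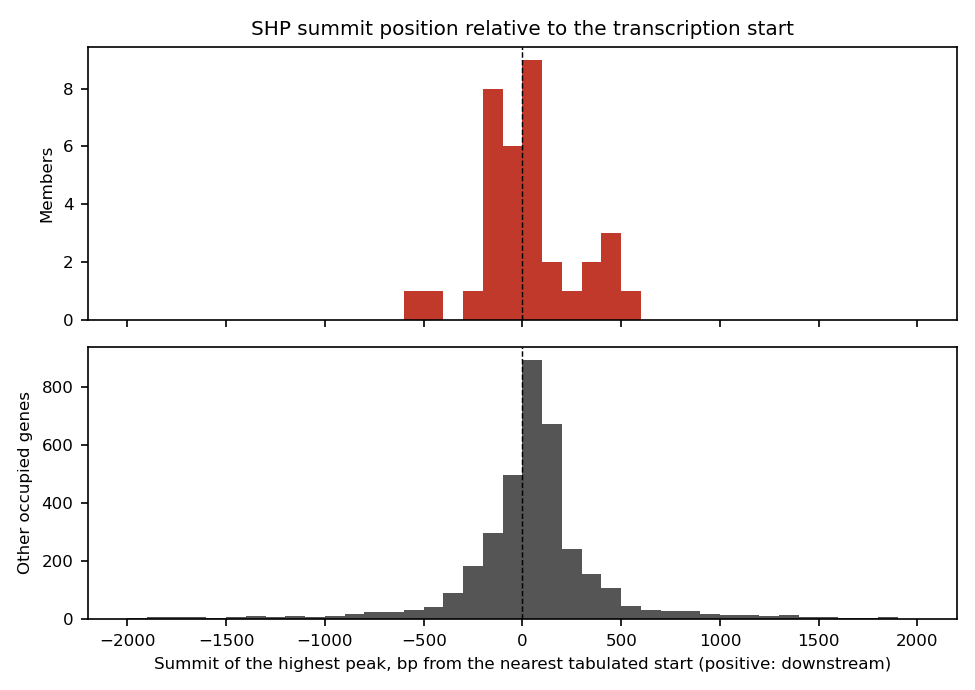
Distance in bp from the nearest tabulated transcription start to the summit of the highest SHP peak (x axis, positive downstream) for occupied members (upper, y axis number of genes) and other occupied genes (lower), in bins across 2000 bp on either side. Of the 37 members 35 fall inside the axis and 2 outside it, and 1034 of the 4626 other genes fall outside it.

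The nearest summit of the 60 unoccupied members lay at a median of 37828 bp, against 126982 bp for other unoccupied protein-coding genes, the Y chromosome left out. Those other genes include the receptors and placeholder symbols, of which only 5.37% were occupied, and no median was taken without them. For 10 of the 60 it was within 10 kb, and for 22 it was beyond 100 kb. Just inside the limit of 5 kb were Rab25 (4546 bp, enrichment value 5.62) and Arl8b (4710 bp, 5.15), and just outside it were Rab27a (5179 bp, 6.11), Arl6ip5 (5199 bp, 6.11) and Rab42 (5449 bp, 8.0). The limit therefore left out a peak higher than any counted for a member, that near Rab42. When each summit was given to the nearest protein-coding gene only, Arl6ip6, Rab25, Arl8b, Rab37 and Rab40b lost theirs, and 37 of 102 (36.3%) remained, where the share over all protein-coding genes was 21.0%. Within 1 kb of an end 38 members (37.3%) had a summit and within 50 kb 74 (72.5%), where all protein-coding genes had 20.7% and 48.2%.

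**Figure D4:**
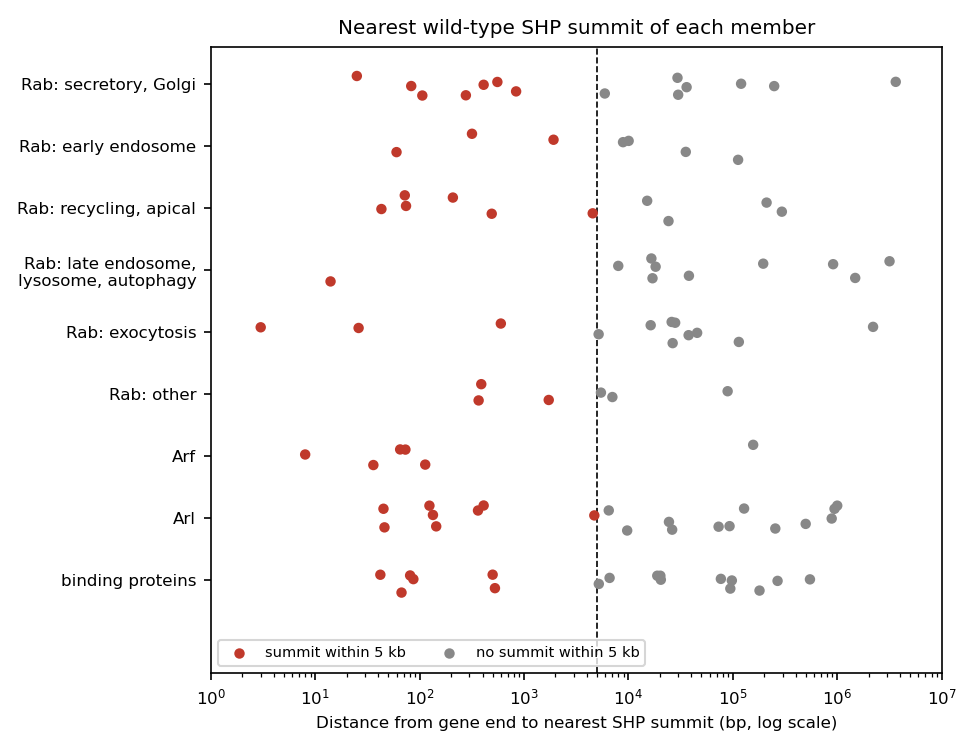
Distance from the nearer gene end to the closest wild-type SHP summit (x axis, bp, log scale) for each of the 102 members by class, in red where it is within 5 kb (dashed line) and in grey where it is not. Most red points lie below 1 kb, and 10 grey points lie between the line and 10 kb.

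Paralogs could differ in whether they had a peak. Of 14 sets of paralogs, selected by hand and not covering every such set among the members, 4 were occupied throughout (Rab1, Arf4 with Arf5, Arl4 and Arl8), 2 not at all (Rab8 and Rab27), and 8 in part. The Arl8 set counts as occupied throughout through the Arl8b summit at 4710 bp, which stood at a start of Edem1. In the sets occupied in part the gene with a peak was Rab2a and not Rab2b, Rab4b and not Rab4a, Rab5a and not Rab5b or Rab5c, Rab6a and not Rab6b, Rab11b and not Rab11a, and Rab33b and not Rab33a. Likewise Arl5a had a peak and Arl5b and Arl5c did not, and Arf1 and Arf3 had peaks and Arf2 did not. Whether the unoccupied relatives are expressed in this tissue was not measured in these files.

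Promoter sequences are shown for the 5 highest members with a summit at the promoter window, and for Arl5b and Arf2, paralogs without a peak, because most peaks of this family sit at starts. They are the bases before the start, 5′ to 3′ on the strand of the gene and outside the RefSeq span of that gene, from RefSeq on GRCm38.p6, which is mm10. Capitals mark matches, on either strand, to the searched motifs CACGTG (the E-box bound by TFEB and clock factors), TCAAGGTCA (NR5A2), TGACGTCA (the CRE), CCAAT (NF-Y), GGGCGG (SP1), CCGGAAGT (ETS factors) and the palindromes of NRF1 and of ZBTB33.
Rab6a (chr7:100607336-100607574, plus strand): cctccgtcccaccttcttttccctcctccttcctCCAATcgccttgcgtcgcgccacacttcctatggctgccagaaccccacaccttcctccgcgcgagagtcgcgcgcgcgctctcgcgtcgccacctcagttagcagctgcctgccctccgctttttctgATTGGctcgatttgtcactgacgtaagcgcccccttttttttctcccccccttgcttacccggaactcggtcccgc
Rab4b (chr7:27178884-27179133, minus strand): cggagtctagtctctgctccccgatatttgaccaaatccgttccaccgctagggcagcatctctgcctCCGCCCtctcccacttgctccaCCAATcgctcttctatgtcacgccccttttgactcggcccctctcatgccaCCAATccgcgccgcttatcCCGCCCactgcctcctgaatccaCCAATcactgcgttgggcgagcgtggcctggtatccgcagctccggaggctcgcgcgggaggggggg
Arl5a (chr2:52424875-52425124, minus strand): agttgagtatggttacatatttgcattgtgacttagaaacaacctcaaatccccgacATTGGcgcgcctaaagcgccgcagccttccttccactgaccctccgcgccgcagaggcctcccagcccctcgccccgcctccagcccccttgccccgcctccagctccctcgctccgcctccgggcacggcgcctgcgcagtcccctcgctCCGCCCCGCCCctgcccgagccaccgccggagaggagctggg
Arf3 (chr15:98763119-98763368, minus strand): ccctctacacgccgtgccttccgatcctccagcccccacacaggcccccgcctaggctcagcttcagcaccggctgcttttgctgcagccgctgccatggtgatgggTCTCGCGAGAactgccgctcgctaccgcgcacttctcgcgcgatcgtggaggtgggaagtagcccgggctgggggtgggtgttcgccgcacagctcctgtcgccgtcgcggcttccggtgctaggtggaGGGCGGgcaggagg
Rab1b (chr19:5106997-5107246, minus strand): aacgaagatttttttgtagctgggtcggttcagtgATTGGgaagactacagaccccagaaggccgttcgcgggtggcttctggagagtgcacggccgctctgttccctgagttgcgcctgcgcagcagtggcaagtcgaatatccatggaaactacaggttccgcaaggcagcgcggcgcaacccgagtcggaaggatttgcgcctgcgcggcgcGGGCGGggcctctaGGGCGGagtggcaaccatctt
Arl5b (chr2:15055070-15055251, plus strand): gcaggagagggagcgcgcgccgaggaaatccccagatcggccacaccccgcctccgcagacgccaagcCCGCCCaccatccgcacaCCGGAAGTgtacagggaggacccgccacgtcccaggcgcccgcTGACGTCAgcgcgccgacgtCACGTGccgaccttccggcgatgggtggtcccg
Arf2 (chr11:103966475-103966724, plus strand): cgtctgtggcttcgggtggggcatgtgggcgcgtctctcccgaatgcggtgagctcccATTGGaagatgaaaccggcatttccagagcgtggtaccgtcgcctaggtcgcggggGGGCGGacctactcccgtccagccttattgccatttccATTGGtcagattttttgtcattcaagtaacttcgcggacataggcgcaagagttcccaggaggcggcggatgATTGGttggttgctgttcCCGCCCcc
The Rab6a stretch lies within the span of Mrpl48, part of the Arl5a stretch lies in that of A430018G15Rik, and part of the Arl5b stretch lies in that of Nsun6. Rab4b held CCAAT at 3 places and GGGCGG at 2, and Arf3 held the ZBTB33 palindrome once, the longest run of capitals in its stretch. Arf2, without a peak, held CCAAT at 3 places too, and Arl5b held the E-box, the CRE and the ETS motif, so the letters alone did not separate the shown promoters.

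Promoters of occupied members were rich in CpG, as were those of other occupied genes. Over the 300-base windows (250 before to 50 after the outermost start), GC content had a median of 66.7% in 37 occupied members and 60.7% in 46 unoccupied ones, against 56.3% over 17492 protein-coding genes. The ratio of observed to expected CpG had medians of 0.871, 0.744 and 0.577 in the same order. It was above 0.6 in 34 of 37 occupied members (91.9%) and 31 of 46 unoccupied members (67.4%), while other occupied genes had 79.3% and other unoccupied genes 37.0%. Low values among the occupied were those of Rab25 (0.371), Rab32 (0.406) and Rab34 (0.518), of which Rab25 had its peak at another gene's start. These are descriptions of the windows, and their part in the peaks was not tested.

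**Figure D5:**
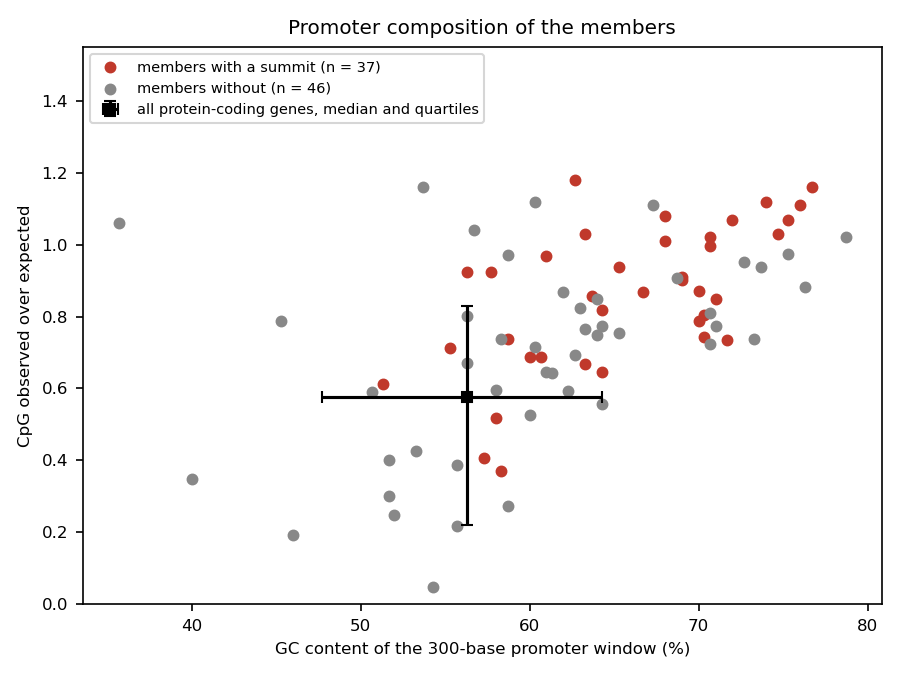
GC content (x axis, %) and observed over expected CpG (y axis, ratio) of the promoter window of each member with a tabulated start, in red with a summit within 5 kb (37 genes) and in grey without (46 genes), and the median and quartiles of all protein-coding genes (black). Most red points lie above the black median of 0.577, with Rab25, Rab32 and Rab34 below it.

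Single motifs were counted in the same windows. CACGTG stood in 7 of 37 occupied members (18.9%), namely Arf5, Arl3, Rab20, Rab21, Rab23, Rab3gap2 and Rab5a, and in 3 of 46 unoccupied ones (6.52%), namely Arl2, Arl5b and Rab24. Over all protein-coding promoters its share was 7.91%, and among other occupied genes 10.8%. GGGCGG stood in 81.1% of occupied and 67.4% of unoccupied members, against 70.5% of other occupied genes and 46.3% of all promoters. CCAAT stood in 48.6%, 47.8%, 38.1% and 39.2% in the same order. The ZBTB33 palindrome stood in Arf3 and Rab33b among the occupied and in no unoccupied member. Its share was 2.08% among other occupied genes and 0.726% over all promoters. CCGGAAGT stood in 0 of 37 occupied and 4 of 46 unoccupied members, against 7.46% of other occupied genes and 5.28% of all. TGACGTCA stood in 3 and 2, against 3.42% and 2.33% in the same order. Neither TCAAGGTCA nor the NRF1 palindrome was found in a member's window. They stood in 0.238% and 2.25% of other occupied genes and in 0.332% and 1.33% of all promoters. These counts are small and carry no test.

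Genes that regulate these GTPases or act with them were occupied at a similar rate, 70 of 158 (44.3%) over 6 lists, beside the background of 26.4%. The 2 counts share peaks, since Dennd6a and Gcc1 were counted through the peaks of Arf4 and Arf5. With each summit given to the nearest gene only, 59 of 158 (37.3%) remained, beside 36.3% of the members and 21.0% of all protein-coding genes. Genes of lipid anchor attachment and of the delivery of lipid-modified proteins had 7 of 11 (63.6%, interval 30.8 to 89.1). They were led by Rabac1 (7.76), Unc119b (6.58) and Rabggtb (6.12), a subunit of the Rab prenyltransferase. GTPase-activating proteins of Rabs had 20 of 34 (58.8%, 40.7 to 75.4), led by Sgsm2 (7.38), Tbc1d30 (6.87) and Tbc1d13 (6.80). Rab exchange factors had 15 of 29 (51.7%, 32.5 to 70.6), led by Rin3 (9.30), which activates Rab5, Dennd4b (7.65) and Dennd6b (7.39). Among Arf and Arl GTPase-activating proteins 13 of 27 (48.1%) were occupied, led by Acap1 (7.52), Git1 (6.34) and Agap3 (6.26). Effectors had 11 of 41 (26.8%), led by Gga3 (6.74), Myo5c (6.70) and Arfip2 (6.65), and Arf exchange factors 4 of 16 (25%), led by Arfgef2 (6.29), Cyth2 (4.81) and Cyth3 (4.67), both near the background. Among other small GTPases, the Ras family had 9 of 26 (34.6%, 17.2 to 55.7), led by Rala (7.09), Rap1a (5.78) and Rerg (5.71). Its interval overlaps that of the 102 members, and differences between the lists were not tested. Sar1, Ran and other relatives had 3 of 11 (27.3%), namely Rabl6 (5.82), Rabl3 (5.60) and Ran (5.06).

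In the SHP-KO list a single member had a summit within 5 kb, Arl5c, a relative of Arl5a (over all protein-coding genes 4, or 0.0183%, had one there). That SHP-KO peak covered chr11:97988214-97988419, with an enrichment value of 5.43 and −log10 p of 11.3. Its summit lay 1258 bp outside Arl5c and at the edge of the transfer RNA gene n-TCgca55 (97988246 to 97988317). In the wild-type list no peak overlapped it, and the nearest wild-type summit to Arl5c was 26220 bp away. None of the 42 genes occupied in the wild-type list had an SHP-KO summit within 5 kb, but that list held 7 peaks and was filtered differently, so the absence does not show that the wild-type peaks depend on SHP.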

How the data were processed

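CASAVA 1.4, BWA and mm10 are named in the submitters' processing notes. How peaks were called, whether with input and on pooled or single sets, is not given in the sources used here. The deposited lists follow the 10-column narrowPeak layout without a header. By their names, the SHP-KO list holds overlapping peaks and the wild-type list passed an irreproducible discovery rate (IDR) of 0.05. The deposited signal of each peak is called the enrichment value. The deposited −log10 p, −log10 q and score described or filtered peaks within a list. None of these was compared between genotypes, since the filters differ and depth was unknown. Sequencing depth was not given, so no interval based on reads was made.

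Gene spans and starts came from RefSeq tables of GRCm38.p6, which shares coordinates with mm10, and all positions are 1-based. Gene occupancy was defined as in the results, and 1 summit could serve several genes. Where a gene had several peaks, the highest enrichment value is given. The assignment was checked on simulated summits. The members and lists were chosen with earlier results of these data known, and roles were assigned from general knowledge by main site of action. All members were named. Positions and −log10 p were given for the 15 highest, for the Arf genes and for members near an SHP-KO peak, and up to 3 genes were named in each regulator list by enrichment value. A list and a neighbouring gene that were examined are not reported here. Shares have 95% exact (Clopper-Pearson) intervals. Motifs were searched in promoter windows of 300 bases. Python 3.11.15, pandas 2.3.3 and scipy 1.17.1 were used. Alternatives were other windows, stricter peaks, nearest gene only and gene overlap. Autosomes only, starts only and a background without receptors and placeholder symbols were added after the data were seen.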

Additional observations from a re-analysis of the deposited data

How the results depend on the processing

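With summits within 1, 2 or 10 kb, with the nearest gene only and with peaks that overlap the gene body, the count of occupied members ran from 37 to 52 and that of each family stayed within 1.5 times its value at 5 kb. Within 50 kb the counts were 74 members, 46 Rab genes, 11 binding proteins and 107 regulators, while Arf and Arl genes stayed within 1.5 times at 5 and 12. With peaks from the median −log10 p upward there were 27 members, 15 Rab genes, 4 Arl genes, 3 binding proteins and 39 regulators. With peaks at or above the 75th percentile of enrichment value there were 4 members, 3 Rab genes, 0 Arf genes, 0 Arl genes, 1 binding protein and 17 regulators. These stricter lists hold fewer peaks, and the share of all protein-coding genes fell to 14.8% and 6.89% with them. Only in the last of these settings was the members' share (3.92%) below that of all genes, which its interval of 1.08 to 9.74 includes. The enrichment value of 38 occupied members was the same within 1 kb, and Rab25, Arl8b, Rab21 and Rab40b had no summit there. Within 50 kb, 13 members took a higher value within 1.5 times of the first, and Rab1a took 6.73. No paired analysis was possible because each genotype had 1 list. Depth was unknown, so its effect on which genes were missed could not be gauged.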

Other observations

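Several peaks counted for a member also lay within 5 kb of another gene of membrane traffic or of the cell's housekeeping. The peak of Arf4 lay 3877 bp from an end of Dennd6a, which encodes a Rab exchange factor, but 58649 bp from the Dennd6a start. The peaks of Arf5 lay 1916 and 2705 bp from the start of Gcc1, which encodes a Golgi tether. The Rab40b peak lay 49 bp from an end of Wdr45b, an autophagy gene, and that of Arl3 lay 307 bp from a start of Sfxn2. Second peaks beyond the far end of a member stood at starts of neighbours. That beyond the far end of Arl6ip1 (enrichment value 4.81) was 101 bp from the start of Rps15a, which encodes a ribosomal protein, and that beyond Arf1 (4.17) was 120 bp from the start of 2310033P09Rik. In all, 17 of the 42 occupied members (40.5%) shared their highest peak with at least 1 other protein-coding gene within 5 kb, where 45.2% of other occupied genes did.

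The deposited score reached its ceiling of 1000 in 20 of the 46 peaks at members (43.5%), where 1466 of all 5775 wild-type peaks (25.4%) reached it. The whole list also holds peaks away from genes, and the share among other peaks near genes was not computed. A score of 1000 did not mark high peaks alone. The Rab6a peak (enrichment value 7.87) had it, but so did the second Arf5 peak (3.62, −log10 p 6.17) and that of Arl4a (4.39).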
